A study of Mus musculus with 18 samples.

Results

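The 9 genes described here encode receptors by which the liver senses drugs, pollutants, bile acids, sterols and hormones, together with 2 proteins that work with them. They were Nr1i2 (PXR), Nr1i3 (CAR), Ahr, Nr1h4 (FXR), Nr0b2 (SHP), Nr1h3 (LXR alpha), Rxra, Thrb and Esr1, chosen by name as the xenobiotic and metabolic receptors of the hepatocyte, and they are 9 of the 18193 genes measured. All 9 were on the array, with 15 probe sets between them, and no member was left out by a filter. All of them are nuclear receptors except Ahr, a ligand-bound transcription factor of another family that serves the same sensing role. Nr1i3 and Thrb lay below the 40th percentile of mean signal over all genes and the other 7 lay above it.

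RNA came from primary hepatocytes of male C57BL/6N mice aged 8 to 12 weeks, either from 1 animal or pooled from at most 3, on a collagen I coating. Cultures sampled from 0 h on had serum-free medium with dexamethasone, a synthetic glucocorticoid, at 100 nM for 24 h. Starvation medium free of it then followed for 4 h before 0 h, the time of stimulation. In 8 arrays the cells had IL-6 from 0 h and also HGF from 4 h, and were sampled at 5, 6, 7, 8, 9, 10, 12 and 24 h. In 4 arrays they had IL-6 without HGF and were sampled at 1, 2, 3 and 4 h, and 5 unstimulated controls were sampled at 0, 4, 8, 12 and 24 h. A control at -5 h lies, by the hours of the protocol, before the change to starvation medium. Both recombinant proteins were given at 40 ng/ml, the IL-6 human and the HGF mouse. IL-6 is the cytokine of the hepatic acute-phase response, and HGF, the ligand of the receptor Met, is a growth factor for hepatocytes. Each stimulus at each hour was 1 array, so hours stood in for replicates. The spread therefore includes change over time, and since no source states separate animals for the dishes it may be technical. No array had IL-6 alone after 4 h and no array analysed here had HGF alone, so in the samples from 5 h on the effects of HGF, of longer IL-6 exposure and of both together cannot be told apart.

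Values are log2 signals as deposited, with medians between 5.463 and 5.564 on the 18 arrays and a mean correlation of each array with the others between 0.9852 and 0.9943. Signals of different probe sets are not comparable as levels, so each gene is compared only with itself. The 9 hepatocyte markers (among them Cps1, Asgr1 and Hnf4a) had a mean log2 signal of 10.509 to 11.666 in IL-6 plus HGF samples, 11.814 to 11.974 in IL-6 samples and 10.99 to 11.955 in controls. The mean of the 12 Kupffer cell markers was 6.962 to 7.341 in IL-6 plus HGF samples, 7.055 to 7.256 in IL-6 samples and 7.01 to 7.782 in controls. A gene was called when its adjusted p, from limma with Benjamini-Hochberg adjustment over all 18193 genes, was under 0.05. In bulk RNA, fewer cells of a type and less RNA per cell cannot be told apart.

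Most of these receptors bind DNA as a dimer with RXR, and their ligands switch bound target genes between repression and activation. PXR and CAR sense drugs and steroids and control cytochrome P450 enzymes, conjugating enzymes and transporters, while FXR senses bile acids and induces SHP, a receptor without a DNA-binding domain that represses bile acid synthesis. In the liver the acute-phase response is known to lower many of the genes that such receptors control.

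At 8, 12 and 24 h, the hours at which both were sampled, 4 of the 9 genes were lower in IL-6 plus HGF samples than in controls: Nr1i2, Nr1h4, Nr0b2 and Esr1. None was called higher, and 6 of the 9 had an unadjusted p under 0.05, beside 4531 of all 18193 genes. Over all genes tested 6.46% were called lower and 2.53% higher in the same comparison. The median difference was -0.57 log2 for the 9 genes and 0.01 for all genes, and 8 of the 9 differences were negative. The start regions of the 4 lower genes are shown because these are the members called at matched hours, each as the 300 bases from 250 before to 50 after the annotated start, read 5′ to 3′ on the gene's strand. The sequences are from RefSeq on GRCm38.p6, where windows were found for 8 of the 9 members. Capitals mark matches on either strand to letters searched: the nuclear receptor hexamer AGGTCA, the STAT motif TTCNNNGAA, the C/EBP motif TTGNNNAA, the AP-1 motif TGANTCA and the AhR core GCGTG.
Nr1i2, chr16:38294775-38295074, minus strand: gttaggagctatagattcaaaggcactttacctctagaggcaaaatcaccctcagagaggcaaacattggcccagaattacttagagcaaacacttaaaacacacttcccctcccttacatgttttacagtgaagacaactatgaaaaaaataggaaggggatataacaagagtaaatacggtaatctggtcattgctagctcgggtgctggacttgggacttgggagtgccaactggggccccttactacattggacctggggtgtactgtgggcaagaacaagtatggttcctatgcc
Nr1h4, chr10:89506609-89506908, minus strand: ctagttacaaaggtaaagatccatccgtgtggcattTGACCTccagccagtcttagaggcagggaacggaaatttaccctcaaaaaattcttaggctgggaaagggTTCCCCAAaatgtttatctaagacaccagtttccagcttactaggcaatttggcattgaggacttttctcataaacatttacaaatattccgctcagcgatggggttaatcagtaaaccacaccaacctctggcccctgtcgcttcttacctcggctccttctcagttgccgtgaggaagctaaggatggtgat
Nr0b2, chr4:133553126-133553425, plus strand: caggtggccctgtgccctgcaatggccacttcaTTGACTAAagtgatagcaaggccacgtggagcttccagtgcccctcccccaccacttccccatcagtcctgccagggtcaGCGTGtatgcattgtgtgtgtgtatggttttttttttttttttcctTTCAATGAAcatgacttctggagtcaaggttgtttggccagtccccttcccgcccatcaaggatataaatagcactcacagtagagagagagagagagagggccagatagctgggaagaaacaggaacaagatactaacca
Esr1, first of 2 windows, chr10:4611739-4612038, plus strand: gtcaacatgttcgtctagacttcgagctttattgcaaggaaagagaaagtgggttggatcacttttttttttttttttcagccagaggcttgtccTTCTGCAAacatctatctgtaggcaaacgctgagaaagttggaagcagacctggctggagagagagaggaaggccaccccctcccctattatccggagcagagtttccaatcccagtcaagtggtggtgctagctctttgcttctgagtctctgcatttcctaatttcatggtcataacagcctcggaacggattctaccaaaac

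The Nr1i2 window held none of the 5 motifs. That of Nr1h4 held TGACCT, the hexamer read on the opposite strand, at -214 from the start and a C/EBP match, TTCCCCAA, at -144. This window lies at an annotated start inside the gene, not at its outer 5′ end. The gene spans 89454234 to 89533645 on chromosome 10 and is read from the higher coordinate. In the Nr0b2 window a C/EBP match lay at -217, an AhR core at -137 and a STAT match, TTCAATGAA, at -91, with no overlap between them. The first Esr1 window held a C/EBP match, TTCTGCAA, at -155, and the second, not printed, held a STAT match at -188 and an AhR core at 5. Among all 32851 windows of the same length, 16.3% held the hexamer, 8.3% the STAT motif, 36.7% the C/EBP motif, 7.8% the AP-1 motif and 32.4% the AhR core. A match describes the letters of the window and shows no binding.

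**Figure D1:**
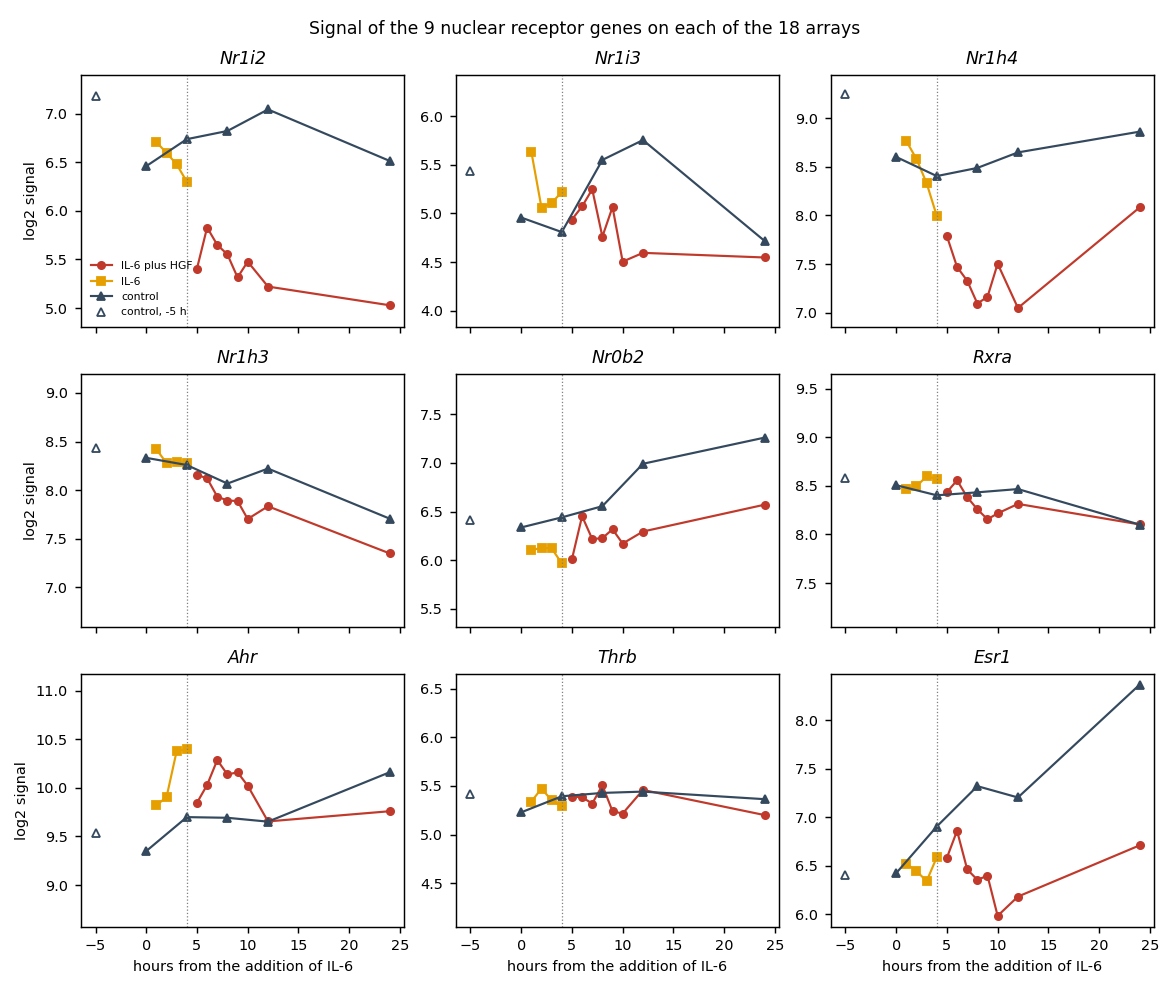
Log2 signal of the 9 genes (y axis, each panel with its own range) against hours from the addition of IL-6 (x axis), 1 point an array, for IL-6 plus HGF, IL-6, controls and the control at -5 h. The dotted line marks the addition of HGF at 4 h. The 8 IL-6 plus HGF samples lie below all 5 controls for Nr1i2 and Nr1h4, and Esr1 climbs with time in controls to 8.36 at 24 h.

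Nr1i2 encodes PXR, the main drug sensor of the liver. Its signal in the 8 IL-6 plus HGF samples had a lowest value of 5.03, a median of 5.44 and a highest of 5.83. In IL-6 samples it was 6.71, 6.60, 6.48 and 6.30 at 1, 2, 3 and 4 h, and in controls 6.46, 6.74, 6.82, 7.04 and 6.51 at 0, 4, 8, 12 and 24 h. Every IL-6 plus HGF sample was below every IL-6 sample and every control, while the IL-6 samples overlapped the controls. At matched hours the differences were -1.27 at 8 h, -1.82 at 12 h and -1.49 at 24 h. Their mean was -1.53 ± 0.11 (SE, 3 pairs of arrays; limma adjusted p = 0.00184), which is 2.88-fold lower. Group means were 5.44 ± 0.25 in IL-6 plus HGF samples (SD, n = 8), 6.52 ± 0.17 in IL-6 samples (SD, n = 4) and 6.71 ± 0.24 in controls (SD, n = 5).

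The low Nr1i2 signal was present on the first array after HGF: 5.41 at 5 h of IL-6 plus HGF, against 6.30 at 4 h of IL-6 alone, a difference of -0.89 between single arrays. The mean of 5 to 7 h differed from that of IL-6 at 2 to 4 h by -0.83 ± 0.12 (SE, 3 arrays each; limma adjusted p = 0.056), short of the threshold that this comparison passed under 5 of its 12 alternatives, 1 of them without IL-6 at 4 h (-0.91, adjusted p = 0.0432). A second probe set, 1451807_at, ran with the first (Pearson r = 0.944 over 18 arrays, a description). It was again lower in all 8 IL-6 plus HGF samples than in every other array, with a difference of -1.29 ± 0.13 at matched hours (SE; limma adjusted p over 45037 probe sets = 0.00489). Within the hours of IL-6 plus HGF the Nr1i2 slope was -0.28 ± 0.08 per doubling of time (adjusted p = 0.0561), which passed without the array at 5 h (-0.38, adjusted p = 0.011) or at 10 h (-0.29, adjusted p = 0.0455). The slope of 1451807_at over the same arrays was -0.06 ± 0.09 (adjusted p over probe sets = 0.845), so a fall within these hours rested on 1 of the 2 probe sets.

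Nr1i3 encodes CAR, the partner sensor of PXR that responds to phenobarbital-like compounds. Its signal was dim: in IL-6 plus HGF samples the lowest was 4.50, the median 4.85 and the highest 5.25. In IL-6 samples it was 5.63, 5.06, 5.11 and 5.22, and in controls 4.96, 4.81, 5.55, 5.76 and 4.72 by hour. All 3 groups overlapped, and the high control values were those at 8 and 12 h. The matched differences were -0.79, -1.16 and -0.17 at 8, 12 and 24 h, with a mean of -0.71 ± 0.17 (SE; limma adjusted p = 0.0553), not past the threshold. The 24 h arrays decided this call: without that pair the mean was -0.98 (adjusted p = 0.0121). In the group means described further on, the difference from late controls was -0.50 (adjusted p = 0.136), and -0.81 without the control at 24 h (adjusted p = 0.0203).

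Ahr encodes the receptor for dioxin and related planar compounds. In IL-6 plus HGF samples its signal had a lowest value of 9.65, a median of 10.02 and a highest of 10.29. In IL-6 samples it was 9.82, 9.90, 10.38 and 10.40 at 1 to 4 h, against 9.35, 9.70, 9.69, 9.65 and 10.16 in controls. The IL-6 samples at 3 and 4 h were above every control and those at 1 and 2 h were not. At 4 h the IL-6 sample exceeded the control of the same hour by 0.70, or 1.62-fold, on a pair of single arrays. Over the first 4 h, with IL-6 set against controls at 0 and 4 h, the difference was 0.60 ± 0.20 (SE; limma adjusted p = 1.00, unadjusted p = 0.00815). The dimmer Ahr probe set, 1450695_at, gave 7.02, 7.15, 7.44 and 7.55 in IL-6 samples, against 6.72, 6.83, 6.86, 6.74 and 6.77 in controls, without overlap, and a difference of 0.51 that was not called. With IL-6 plus HGF the matched differences of Ahr turned sign, at 0.45, 0.00 and -0.40 for 8, 12 and 24 h, and averaged 0.02 ± 0.15 (limma adjusted p = 0.961). For 1450695_at they were smaller, at 0.196, -0.125 and -0.048 (r = 0.65 between the 2 probe sets over 18 arrays). From 12 to 24 h the controls rose by 0.51 on the brighter probe set and by 0.02 on 1450695_at.

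Nr1h4 encodes FXR, the bile acid receptor. Its signal in IL-6 plus HGF samples was 7.79, 7.47, 7.33, 7.09, 7.16, 7.50, 7.05 and 8.08 in the order of the hours. In IL-6 samples it was 8.77, 8.58, 8.33 and 8.00, and in controls 8.60, 8.41, 8.49, 8.65 and 8.86. Every IL-6 plus HGF sample was below every control, and 7 of 8 were below every IL-6 sample, the exception being the array at 24 h. The matched differences were -1.40, -1.60 and -0.78, with a mean of -1.26 ± 0.15 (SE; limma adjusted p = 0.00711), which is 2.39-fold lower. The 24 h sample under IL-6 plus HGF was 1.03 above the one at 12 h, while the controls at the same hours differed by 0.21. Over 5 to 7 h the mean was -0.77 ± 0.16 against IL-6 at 2 to 4 h (adjusted p = 0.121).

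Nr0b2 encodes SHP, the repressor that FXR induces. In IL-6 plus HGF samples the signal had a lowest value of 6.01, a median of 6.26 and a highest of 6.57. It was 6.10, 6.13, 6.12 and 5.97 in IL-6 samples and 6.34, 6.44, 6.56, 6.99 and 7.26 in controls. All 4 IL-6 samples and 6 of the 8 IL-6 plus HGF samples were below the lowest control. The matched differences were -0.33, -0.70 and -0.69, with a mean of -0.57 ± 0.10 (SE; limma adjusted p = 0.0187), which is 1.49-fold lower. This call was lost without the pair at 12 h (-0.51, adjusted p = 0.0809) and without the pair at 24 h (-0.51, adjusted p = 0.0719). Over the first 4 h of IL-6 the difference was -0.31 ± 0.16 (adjusted p = 1.00), so the lack of overlap did not make a call. The slope under IL-6 plus HGF was 0.16 per doubling of time (limma adjusted p = 0.204), and 0.22 without the array at 6 h (adjusted p = 0.0419). Of the 8 IL-6 plus HGF samples, 7 were above every IL-6 sample. Controls rose as well, by 0.93 from 0 to 24 h. Their slope was 0.19 ± 0.05 per doubling of the hours plus 1 (adjusted p = 0.0864), and was called with hours in place of log2 (adjusted p = 0.00918). A direct difference of slopes used log2 of the hours in both groups and left out the control at 0 h, unlike the control slope above. It was -0.17 ± 0.10 and was not called (limma adjusted p = 0.901).

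Nr1h3 encodes LXR alpha, the oxysterol receptor that controls sterol export and fatty acid synthesis. Its signal in IL-6 plus HGF samples was 8.16, 8.12, 7.93, 7.89, 7.89, 7.70, 7.83 and 7.35 by hour. It was 8.42, 8.28, 8.29 and 8.28 in IL-6 samples and 8.33, 8.26, 8.07, 8.22 and 7.71 in controls. All IL-6 plus HGF samples were below all IL-6 samples, but they overlapped the controls, which were themselves lowest at 24 h. The slope under IL-6 plus HGF was -0.35 ± 0.05 per doubling of time (SE, n = 8; limma adjusted p = 0.00256), the only slope called among the 9 genes, beside 4.84% of all genes called with a falling slope. Without the 24 h array the slope was -0.33 and no longer called (adjusted p = 0.143). In controls it was -0.11 ± 0.04 per doubling of the hours plus 1 (limma adjusted p = 0.205). The direct difference of slopes, on log2 of the hours in both groups without the control at 0 h, was -0.16 ± 0.09. It was not called (limma adjusted p = 0.89). At matched hours the difference was -0.31 ± 0.08 (adjusted p = 0.0653), and it passed under 3 of 11 alternatives, among them a natural spline of hour over 17 arrays (-0.26, adjusted p = 0.0146).

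Rxra encodes the dimer partner that PXR, CAR, FXR, LXR and the thyroid hormone receptor share. Its brightest probe set, 1425762_a_at, ranged over 8.10 to 8.56 in IL-6 plus HGF samples, 8.47 to 8.60 in IL-6 samples and 8.10 to 8.51 in controls. The groups overlapped, and the matched difference was -0.11 ± 0.08 (SE; limma adjusted p = 0.432). A second probe set, 1454773_at, gave 8.13, 8.06 and 7.94 in IL-6 plus HGF samples at 8, 12 and 24 h, against 8.55, 8.62 and 8.20 in controls. That is a difference of -0.41 ± 0.09 (adjusted p over probe sets = 0.054), so the size depended on the probe set although neither passed. The third, 1430497_at, was dim and ran weakly with the other 2 (r = 0.237 and 0.298 over 18 arrays).

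Thrb encodes the main thyroid hormone receptor of the hepatocyte. Its signal stayed within 5.20 to 5.51 in IL-6 plus HGF samples, 5.29 to 5.47 in IL-6 samples and 5.23 to 5.44 in controls. The groups overlapped throughout, and the matched difference was -0.02 ± 0.08 (SE, limma adjusted p = 0.892). Thrb had 1 probe set, below the 40th percentile of mean signal, with a range of 0.306 log2 over the 18 arrays. Whether so dim a signal would follow a change of the transcript was not tested.

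Esr1 encodes estrogen receptor alpha, which hepatocytes express and which binds DNA without RXR. In IL-6 plus HGF samples its signal was 6.58, 6.86, 6.46, 6.36, 6.40, 5.98, 6.18 and 6.71 by hour. It was 6.52, 6.45, 6.34 and 6.59 in IL-6 samples and 6.42, 6.90, 7.32, 7.20 and 8.36 in controls. The controls at 4, 8, 12 and 24 h were above every stimulated sample, while the control at 0 h lay among them. The control at 4 h was only just above, at 6.90 against 6.86. The matched differences were -0.96, -1.02 and -1.65, with a mean of -1.21 ± 0.14 (SE; limma adjusted p = 0.00611), which is 2.32-fold lower. The control signal at 24 h was 1.94 above that at 0 h, or 3.84-fold. The slope in controls, per doubling of the hours plus 1, was 0.36 ± 0.07 (SE, n = 5; adjusted p = 0.0517), and 0.24 (adjusted p = 0.033) without the 24 h array.

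Esr1 had 2 further probe sets that did not run alike. With 1435663_at the signal was 3.60, 3.89 and 4.17 in IL-6 plus HGF samples at 8, 12 and 24 h, against 4.39, 4.28 and 5.79 in controls. This probe set followed the first (r = 0.937), with a matched difference of -0.93 ± 0.21 (adjusted p over probe sets = 0.058). The other, 1421244_at, did not follow it (r = -0.14), had a matched difference of 0.12 (adjusted p = 0.474), and was above the highest control in 7 of 8 IL-6 plus HGF samples.

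**Figure D2:**
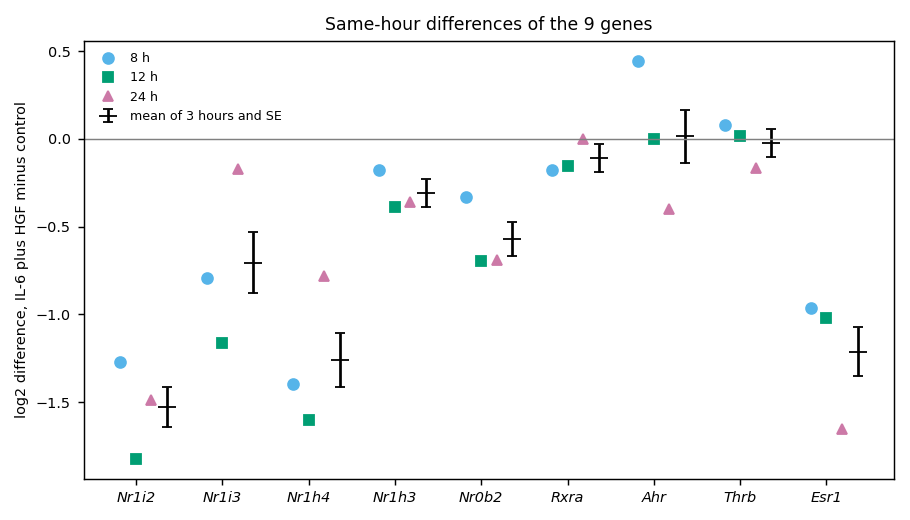
Same-hour log2 differences, IL-6 plus HGF minus control, for the 9 genes (y axis, log2), with 1 symbol each for 8, 12 and 24 h and the mean of the 3 hours with its SE from limma beside them. Nr1i2, Nr1h4, Nr0b2 and Esr1 are below 0 at all 3 hours and were called; Ahr changes sign between 8 and 24 h.

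**Figure D3:**
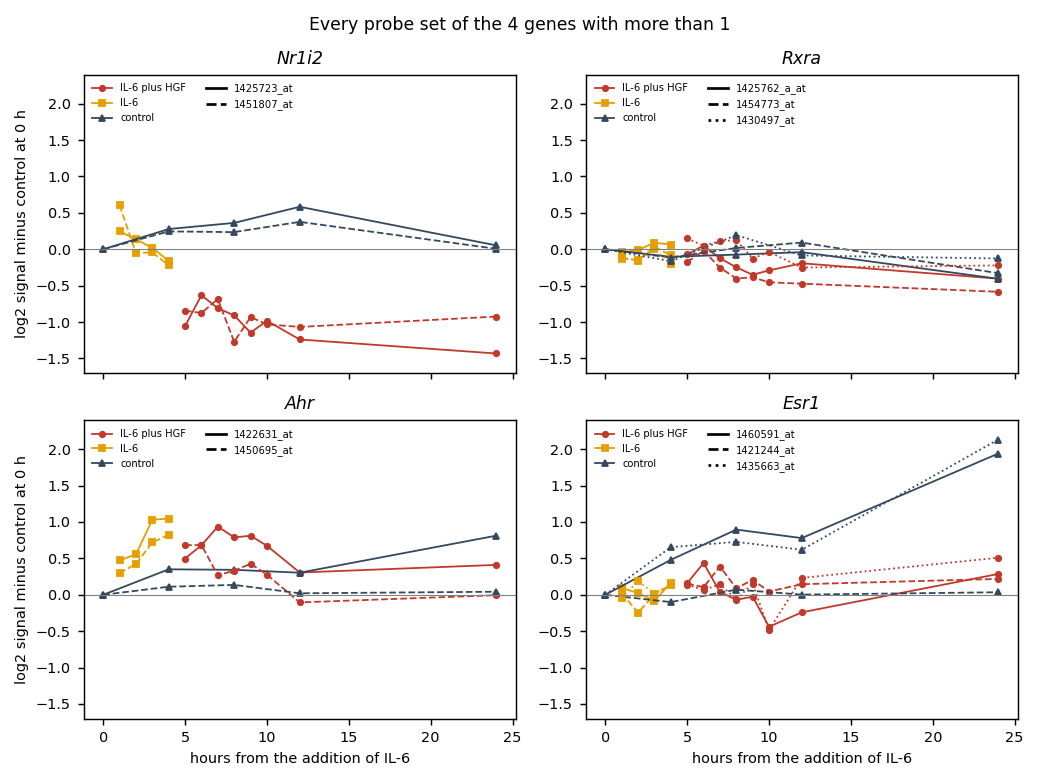
Every probe set of the 4 genes with more than 1, as log2 signal minus that of the control at 0 h (y axis) against hours from the addition of IL-6 (x axis), by stimulus and probe set. Both Nr1i2 probe sets are lower with IL-6 plus HGF than in every other group, whereas 1421244_at of Esr1 does not follow the other 2 Esr1 probe sets.

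The matched comparison used 6 arrays, with the hour as a block, and left 2 residual degrees of freedom. Without the hour block only Nr1i2 stayed called among the 9, and the adjusted p was 0.108 for Nr1h4, 0.263 for Nr0b2 and 0.152 for Esr1. When all 8 IL-6 plus HGF samples were set against controls at 8 to 24 h, in a model of group means over 17 arrays, the same 4 genes were called lower, against 6% of all genes. Their differences there were -1.36 for Nr1i2, -1.23 for Nr1h4, -0.65 for Nr0b2 and -1.19 for Esr1 (adjusted p = 6.82e-05, 0.001, 0.00322 and 0.0021). This model and the matched fit share control and stimulated arrays.

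In the first 4 h of IL-6 alone limma called 0 of the 9 genes, against 0.022% of all genes. Only Ahr, 1 of the 9, had an unadjusted p under 0.05, beside 656 of all 18193 genes. The change of the effect after HGF, that is the difference at 5 to 24 h minus the difference at 1 to 4 h, was called for 0 of 9, again against 0.022% of all genes. For this change 4 of the 9 had an unadjusted limma p under 0.05, beside 1419 of all 18193 genes. All 9 estimates were negative, with a median of -0.45 against 0.01 over all genes. They share the same 17 arrays, so their signs are not separate evidence. The Nr1i2 estimate was -1.28 ± 0.24 (limma adjusted p = 0.0998). That of Nr1i2 passed without IL-6 plus HGF at 6 h (-1.34, adjusted p = 0.0424). Between 5 to 7 h of IL-6 plus HGF and 2 to 4 h of IL-6 the count was 0 of 9, beside 0.126% of all genes. There 3 of the 9 had an unadjusted p under 0.05, beside 2166 of all 18193 genes. In controls 0 of 9 slopes were called, beside 3.61% of all genes. An unadjusted p under 0.05 was found for 4 of the 9, beside 4077 of all 18193 genes. The slopes of IL-6 plus HGF and control were also compared directly, a comparison chosen after the data had been seen. By limma 0 of 9 differed, beside 0.0989% of all genes, with Esr1 at -0.57 ± 0.20 (adjusted p = 0.585). Of the 9, 2 had an unadjusted p under 0.05, beside 1144 of all 18193 genes.

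By ranges alone, the share of all genes with every IL-6 plus HGF sample below every control from 0 h on was 1.97%, and the 2 members among them were Nr1i2 and Nr1h4. Every IL-6 sample was below every control for 3.19% of genes, with 1 member, Nr0b2. Every IL-6 plus HGF sample was below every IL-6 sample for 3.86% of genes, with 2 members, Nr1i2 and Nr1h3.

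The control at -5 h, taken while dexamethasone was still present by the protocol's hours, gave 7.18 for Nr1i2 and 9.25 for Nr1h4, each above every later array of its gene. The difference from the 5 later controls was 0.46 ± 0.22 for Nr1i2 and 0.65 ± 0.18 for Nr1h4 (SE; adjusted p = 0.838 each). No member and no other gene was called by limma in this comparison of 1 array with 5. Nr1i3 was at 5.44, within the range of the later controls. PXR and CAR are known as genes that glucocorticoids induce. The array at -5 h also came earlier in culture than the others, so medium and time cannot be told apart here.

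The partners and targets of these receptors were followed through lists. For comparison, 4531 of all 18193 genes had an unadjusted p under 0.05 at matched hours. The same count was 4219 for slopes under IL-6 plus HGF, 4077 for control slopes and 1144 for differences of slopes. Of 36 other nuclear receptors, 5 were lower at matched hours and none was called higher (13 had an unadjusted p under 0.05), with a median of -0.06. Pparg, the adipogenic receptor, differed by -1.54 ± 0.18 and Nr3c2, the mineralocorticoid receptor, by -1.06 ± 0.07. Hnf4a, a receptor that maintains hepatocyte identity, differed by -0.67 ± 0.10 and Rxrg by -0.53 ± 0.11 (limma adjusted p = 0.00168 to 0.0371 for these 4). Of 17 partners and coregulators 3 were lower: Arnt, the dimer partner of AhR (-0.47), and the coactivators Ppargc1a (-0.66) and Ncoa1 (-0.49). Their list had a median of -0.11 and 6 members at an unadjusted p under 0.05.

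Among 24 genes listed as PXR and CAR targets, 9 were lower and 1 was higher at matched hours, with a median of -0.26. The differences in this list ran from -1.22 to 1.84, so its largest change was an increase. Over group means, whose hours were not matched, 3 were lower and 2 higher, beside 6% and 2.84% of all genes. There 12 differences were negative and 12 positive, with a median of -0.04. The lower ones included the conjugate exporter Abcc2 (-0.87 ± 0.08, adjusted p = 0.00379), Gstm3, a glutathione transferase (-1.11 ± 0.14), Cyp2b10, the classic CAR target (-0.64 ± 0.12), and Aldh1a1 (-0.59 ± 0.12). The slopes with time under IL-6 plus HGF were called falling for 14 of these 24 and rising for 1, beside 4.84% and 6.27% of all genes. In controls 17 of the 24 slopes were negative, and 17 had an unadjusted limma p under 0.05. Of these control slopes 3 were called falling and 1 rising, beside 1.47% and 2.14% of all genes. The direct difference of slopes, over 12 arrays, was called for 0 in the falling and 2 in the rising direction, with 8 at an unadjusted p under 0.05. Cyp2b10 fell by 1.80 log2 per doubling of time under IL-6 plus HGF, and it also fell in controls, by 0.90 per doubling of the hours plus 1 (adjusted p = 0.0383). Under IL-6 plus HGF Aldh1a7 fell by 1.57 and Cyp2c29 by 1.12. Probe sets for Cyp2b, Cyp2c and Gstm genes may hybridize with close family members.

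Of 20 FXR targets, 5 were lower and 2 higher at matched hours, with a median of -0.21. Over group means 2 were lower and 2 higher, with 11 differences negative and 9 positive and a median of -0.03. Baat, which conjugates bile acids, differed by -2.73 ± 0.35, and the phospholipid exporter Abcb4 by -1.71 ± 0.18. The 2 higher members were the fibrinogen chains Fga (0.81 ± 0.09) and Fgb (0.58 ± 0.07), which are also acute-phase genes. With time under IL-6 plus HGF, 11 of the 20 fell and none was called rising (13 had an unadjusted p under 0.05), the bile acid importer Slc10a1 by 0.78 and the exporter Abcb11 by 0.49 per doubling. In controls 16 of the 20 slopes were negative and 1 was called falling, that of Abcb11 (-0.24, adjusted p = 0.0296). The difference of slopes was called by limma for 0 of 20, with 5 at an unadjusted p under 0.05 and Slc10a1 at -0.36 ± 0.15 (adjusted p = 0.699).

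Of 16 LXR targets 2 were lower and 1 higher: the sterol exporter Abcg5 (-0.56) and the lipase Lpl (-0.42), and Lpcat3, which remodels phospholipids (0.37). Of 8 AhR targets, Tiparp was higher (0.98 ± 0.08, adjusted p = 0.00292) and Pnpla7 lower (-0.47 ± 0.08), and along the hours of IL-6 plus HGF 4 of 8 fell, Cyp1a2 by 0.96 per doubling. In controls 2 of the 8 fell, Cyp1a1 (-0.90, adjusted p = 0.0251) and Tiparp (-0.29, adjusted p = 0.014), and limma called a difference of slopes for 0 of 8, with 1 at an unadjusted p under 0.05. Of 10 thyroid hormone receptor targets 4 were lower: Dio1, the deiodinase (-1.20), Cpt1a, of fatty acid oxidation (-1.10), Thrsp (-0.46) and Klf9 (-0.43). Thrb itself, read by a single dim probe set, was not called. The medians were -0.07, -0.19 and -0.07 for the LXR, AhR and thyroid lists. Over group means 2 LXR targets were lower and 2 higher, 1 AhR target was higher, and 1 thyroid hormone receptor target was lower.

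Genes of the IL-6 response and markers of cell types were followed in the same comparison. Of 15 IL-6 response genes 8 were higher at matched hours, Socs3 by 2.53 ± 0.12 and Cebpd by 2.03 ± 0.10, and none was called lower. Of 9 hepatocyte markers 3 were lower and all 9 differences were negative, with a median of -0.15, Cps1 at -1.48 ± 0.23 and Asgr1 at -0.77 ± 0.14. Over group means, whose hours were not matched, 1 hepatocyte marker was lower, with 4 differences negative, 5 positive and a median of 0.00. With time the slopes of these markers were negative for all 9 under IL-6 plus HGF and for 8 of 9 in controls. Of 12 Kupffer cell markers 1, Cd68, was lower (-0.73 ± 0.16) and all 12 were negative, and over group means 11 of the 12 were negative. In the first 4 h of IL-6, 11 of the 12 were negative with a median of -0.52, and limma called 0 of them while 8 had an unadjusted p under 0.05. Of 10 endothelial markers 1 was lower, Clec4g (-0.70), and of 5 cholangiocyte markers 1 was higher, Sox9 (0.55). Over the 10 stellate cell and fibroblast markers limma called 0, with 3 at an unadjusted p under 0.05, beside 4531 of all 18193 genes. The part of cell composition in the differences of the 9 genes was not tested.

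**Figure D4:**
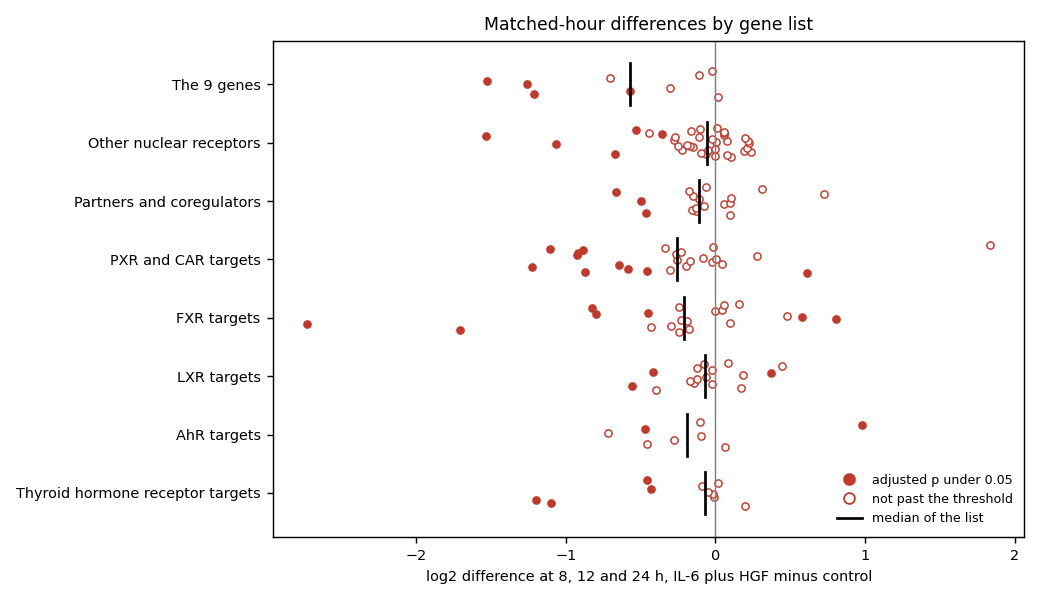
Matched-hour log2 differences, IL-6 plus HGF minus control (x axis), for the 9 genes and for 7 lists of related receptors, partners and targets (y axis), 1 point a gene. Filled points were called, open points were not, and bars are list medians, which run from -0.57 for the 9 genes to -0.06 for other nuclear receptors.

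The genes whose signal ran most like each member over the 18 arrays are given as a description, since all arrays share the 2 stimuli and the time course. They were Osbpl1a, Dnaja3 and Tbc1d24 for Nr1i2 (Pearson r = 0.969, 0.96 and 0.957), and Hpgd, Lurap1l and Depdc7 for Nr1h4 (0.965, 0.96 and 0.956). For Nr1h3 they were Mbl1, Ces1g and Masp2 (0.986, 0.978 and 0.977), 2 of which, Mbl1 and Masp2, belong to the lectin pathway of complement. For Nr0b2 they were Trmt2b, Itm2b and Abcc2 (0.933, 0.931 and 0.916), and for Esr1 Ptprd, Crot and Pls1 (0.942, 0.932 and 0.926). Glul, glutamine synthetase, ran most like Ahr (0.905), ahead of Iigp1 (0.805) and Trappc11 (0.792). The nearest for the dim Nr1i3 were Gpr20, Upb1 and Tmem38b at 0.842, 0.84 and 0.838. Rxra and Thrb varied too little to be in the top 20% of genes by SD and were given none. Between members, r was 0.885 for Nr1h3 with Rxra, 0.853 for Nr1i2 with Nr1h4 and 0.831 for Nr0b2 with Esr1.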

How the data were processed

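Per the labels' protocols, RNA of 18 primary hepatocyte cultures was purified with an RNeasy kit, biotin-labelled by the one-cycle method and measured on Affymetrix arrays of 45101 probe sets, 1 array a culture. The deposited values were log2 signals, per the labels, from 2.095 to 15.049. How the authors summarized and normalized them is not given in the sources consulted. Each array's quantiles lay within 0.041 to 0.118 of the average quantiles, so no scaling was added. The labels' stimulus and hour gave the groups, and 0 columns lacked a sample.

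After 64 control probe sets were left out, 34945 of 45037 probe sets had 1 gene symbol (34741 through Entrez identifiers, 204 as annotated), 932 had several and 9160 none. A gene took its probe set with the highest mean over 18 arrays. This gave 18193 genes, 9010 with more than 1 probe set. Fits used limma 3.58.1 in R 4.3.3 (lmFit, eBayes), and p was adjusted by Benjamini-Hochberg over the 18193 genes, with 0.05 as the threshold. The matched fit paired arrays by hour. Group means (17 arrays) compared IL-6 with controls at 0 and 4 h, and IL-6 plus HGF with controls at 8 to 24 h. Slopes used log2 of the hours (of the hours plus 1 in control). The difference of slopes used log2 of the hours in both groups, without the control at 0 h. The fits were also run on simulated data with independent noise around constant gene means and added effects. Such data cannot show how hours used as replicates bear on the p-values.

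The members, gene lists, motifs and tests were chosen with earlier results of these data known. All members are reported. Of other lists, up to 4 called genes with the smallest adjusted p were eligible to be named (of lists with none called, 2 as values), and for likeness the 3 best correlated genes of members in the top 20% by SD. Alternatives were quantile normalization, median centring, a filter at the 40th percentile, the mean of probe sets, robust variance with an intensity trend, leaving out each array or pair, no hour block, hours in place of log2, no 24 h arrays, and a natural spline of hour (3 degrees of freedom; splines 4.3.3). The number of arrays limits the precision. Sequences came from RefSeq (GRCm38.p6).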

Additional observations from a re-analysis of the deposited data

Results flagged for a closer look

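Of 45 groups of arrays tested, 3 had an array standing apart, where chance alone gives such a gap in 5% of groups. The share of the group's range taken by the gap is given for each. Nr1h3 in IL-6 samples was highest at 1 h, with a signal of 8.42 against the next value of 8.29 (0.912 of the range). Nr0b2 in IL-6 samples was lowest at 4 h, at 5.97 against 6.10 (0.834). Rxra in controls was lowest at 24 h, at 8.10 against 8.40 (0.744).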

How the results depend on the processing

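The 9 calls on members held in 149 of 156 alternatives, lost the threshold in 7 and reversed in 0. The 72 member results that were not called stayed so in 1144 of 1212, passed in 27 and turned sign without a call in 41. At matched hours 4 members were called, and 1 without the hour block. For the change of effect the count was 0, and leaving out single arrays gave 0 to 1. For 5 to 7 h against IL-6 at 2 to 4 h the count of 0 became 1 with median centring, the percentile filter, the intensity trend or the mean of probe sets, and was 0 to 1 leaving out arrays. The 1 slope called under IL-6 plus HGF became 2 with median centring, the filter, the mean of probe sets or hours in place of log2, 0 without the 24 h array, and 0 to 2 leaving out arrays. The count of 0 control slopes became 1 with quantile normalization, median centring, the filter, the intensity trend or no 24 h array, 3 with hours in place of log2, and 0 to 1 leaving out arrays. The cause of these moves was not tested.

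Counts over all genes moved more. At matched hours 461 were higher and 1176 lower, with ranges of 48 to 1056 and 94 to 2096. Over group means 516 and 1092 ranged over 233 to 1091 and 504 to 1923. For IL-6 alone 4 and 0 ranged over 3 to 20 and 0 to 2, and for the change of effect 2 and 2 over 0 to 8 and 0 to 18. For 5 to 7 h, 10 and 13 ranged over 0 to 101 and 0 to 147. Slopes under IL-6 plus HGF, 1140 and 880, ranged over 50 to 1769 and 194 to 1326, control slopes, 390 and 267, over 14 to 1123 and 9 to 562, and slope differences, 7 and 11, over 0 to 17 and 0 to 27. The share of calls that were higher was 28.2% at matched hours, 38% after quantile normalization and 43.1% after median centring. Over group means it was 32.1%, 47% and 60.4%, and for control slopes 59.4%, 50.3% and 43.5%, in the same order. For slopes under IL-6 plus HGF it was 56.4%, and 44.7% after median centring.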

Other observations

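The glucocorticoid receptor targets form a group that the comparisons of the 9 genes leave out. In the control at -5 h 13 of the 14 were above the mean of the 5 later controls, with a median of 0.79 log2 and a mean log2 signal of the list of 10.129, against 8.999 to 9.666 in the later controls. No gene was called by limma in this comparison of a single array with 5. On the same single array all 9 hepatocyte markers (median 0.30), 20 of 24 PXR and CAR targets and 17 of 20 FXR targets were also above that mean, and 8 of 12 Kupffer cell markers were below it. The part of cell composition in this was not tested. At matched hours 3 were lower in IL-6 plus HGF samples, Tat, a tyrosine-degrading enzyme (-0.85 ± 0.11), Zbtb16 (-0.64 ± 0.11) and Dusp1, a phosphatase of MAP kinases (-0.41 ± 0.09), and 1 was higher, Gadd45a (1.02 ± 0.12; all ± SE, limma).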
